A study of Arabidopsis thaliana with 12 samples.

Results

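The expression of 10 genes of Arabidopsis thaliana that are little known in iron nutrition was followed across 12 shoot libraries, 10 of the 32678 genes in the deposited tables. In these libraries 6 of them were far higher on deficient iron, and they are AT4G36700, a cupin gene, AT1G13608 and AT1G13609, a neighbouring pair of defensin-like genes, AT2G14247, which the annotation calls uncharacterized, SESA5 (AT5G54740), a seed storage albumin gene, and PYL3 (AT1G73000), an abscisic acid receptor gene. The other 4 were lower on deficient iron, and they are AT3G49160, of the pyruvate kinase family, AT3G43850, uncharacterized, AT3G43670, of the copper amine oxidase family, and AT2G36885, annotated as a translation initiation factor. The members were chosen by identifier because of these measured differences between deficient and sufficient iron, so their iron values are given as a description with no test. Between the genotypes, the mean over both iron levels was tested, and the values at each iron level are a description too, since they use the libraries that chose the members.

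Wild-type (Col) and clf seedlings were germinated and raised for 12 days on B5 medium and then kept for 3 days on medium holding sufficient or deficient iron. They grew at 22 °C, in days of 16 h light and 8 h dark. clf is a mutant in CURLY LEAF (CLF), a histone methyltransferase of Polycomb repressive complex 2, which keeps genes silent by methylating histone H3. The groups were wild type on sufficient iron, wild type on deficient iron, clf on sufficient iron and clf on deficient iron, with 3 libraries each. Neither the clf allele nor the origin of the replicates is stated in the sources used here. If replicates were not grown separately, the p-values measure a spread between samples that may be technical. Most labels name shoots as the tissue, but 1 tissue label and the protocol of RNA extraction name roots. In counts scaled to the library total (CPM), the sum over 7 leaf marker genes lay between 48431 and 102284 over all libraries, and that over 12 root marker genes between 288 and 711, with none of either list at 0 counts in the series. In bulk tissue, fewer cells of a type and less RNA per cell cannot be told apart.

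The libraries held 16092041 to 29400813 counts, and all 6 deficient libraries (at least 21297005) were deeper than all 6 sufficient ones (at most 20706803). CLF itself lay between 3.09 and 5.40 CPM in clf and between 13.1 and 17.1 CPM in wild type. A single library in each group stood apart in its circadian clock genes, namely replicate 3 of both sufficient groups and of deficient clf, and replicate 2 of deficient wild type. TOC1, an evening gene of the clock, was at 30.2 to 59.6 CPM in these 4 libraries and at 9.44 to 13.0 CPM in the other 8. Several values are therefore also given without these 4 libraries, or without a single library.

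When iron runs short, Arabidopsis leaves induce a small set of basic helix-loop-helix (bHLH) transcription factors, among them bHLH38, bHLH39, BHLH100 and BHLH101, and switch on genes of iron transport, while genes for ferritins, the iron storage proteins, and for many iron-using plastid proteins are turned down. bHLH factors bind E-box sequences, of which the G-box is the best known, and factors of abscisic acid signalling bind overlapping sequences with an ACGTG core. Cupins are a large superfamily of barrel-shaped proteins that includes seed storage globulins, defensins are small cysteine-rich secreted peptides, and 2S albumins such as SESA5 are made in the maturing seed. PYL3 belongs to the receptors that, on binding abscisic acid, block type 2C protein phosphatases.

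The promoter windows of 4 of the genes are shown because 3 of them hold the G-box and the fourth, of the gene with the highest level per length on deficient iron, holds no E-box at all. Each runs from 250 bases before the annotated transcript start to 50 bases after it, in RefSeq's TAIR10.1 assembly, written 5′ to 3′ on the gene's strand, with the G-box CACGTG in capitals.
AT4G36700, chr4:17300318-17300617, minus strand: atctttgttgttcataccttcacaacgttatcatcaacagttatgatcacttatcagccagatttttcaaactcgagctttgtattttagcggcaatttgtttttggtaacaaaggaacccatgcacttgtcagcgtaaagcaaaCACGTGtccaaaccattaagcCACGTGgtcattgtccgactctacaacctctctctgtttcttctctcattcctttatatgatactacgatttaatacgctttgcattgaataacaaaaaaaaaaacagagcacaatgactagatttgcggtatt
SESA5, chr5:22239138-22239437, minus strand: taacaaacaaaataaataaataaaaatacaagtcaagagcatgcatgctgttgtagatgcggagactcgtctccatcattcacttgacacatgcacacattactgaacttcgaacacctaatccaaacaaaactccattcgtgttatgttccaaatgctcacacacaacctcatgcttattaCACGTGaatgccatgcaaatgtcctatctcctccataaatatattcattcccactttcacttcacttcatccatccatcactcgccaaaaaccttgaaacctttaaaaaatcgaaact
AT2G36885, chr2:15483739-15484038, minus strand: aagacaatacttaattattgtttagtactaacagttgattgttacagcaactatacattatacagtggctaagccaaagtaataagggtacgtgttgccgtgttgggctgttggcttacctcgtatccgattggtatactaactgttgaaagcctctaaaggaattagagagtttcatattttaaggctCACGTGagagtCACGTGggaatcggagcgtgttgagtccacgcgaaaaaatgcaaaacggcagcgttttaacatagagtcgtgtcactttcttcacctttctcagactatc
AT1G13609, chr1:4662448-4662747, plus strand: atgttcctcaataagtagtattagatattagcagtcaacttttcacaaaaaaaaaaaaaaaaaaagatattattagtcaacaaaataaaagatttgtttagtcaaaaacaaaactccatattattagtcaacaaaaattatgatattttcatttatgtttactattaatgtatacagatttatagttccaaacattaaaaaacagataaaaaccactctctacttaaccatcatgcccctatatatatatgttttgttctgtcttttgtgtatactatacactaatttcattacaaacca

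The G-box begins 105 and 84 bases before the start of AT4G36700, 68 bases before that of SESA5, and 61 and 50 bases before that of AT2G36885. AT4G36700 and SESA5 were higher on deficient iron and AT2G36885 was lower, so the 3 windows with a G-box belong to genes of both directions. Of 27443 windows of the same length over all protein-coding genes, 7.68% hold a G-box. The E-box CANNTG, of which the G-box is a special case, was found in 8 of the 10 windows, with 5 sites before SESA5 and none in AT1G13609 and AT3G49160, against 61.7% of all windows. The ACGTG core, searched like the others on both strands and present in every G-box, was found in those 3 windows and also before AT2G14247 and PYL3, against 26.7% of all windows. GTAC, the core bound by the copper regulator SPL7, was found before PYL3, AT3G43670 and AT2G36885, against 39% of all windows. The telobox AAACCCTA, a sequence known from the recruitment of Polycomb complexes, was in none of the 10 windows, against 6.22% of all. A match is a description of these letters only, and 10 windows are few.

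**Figure D1:**
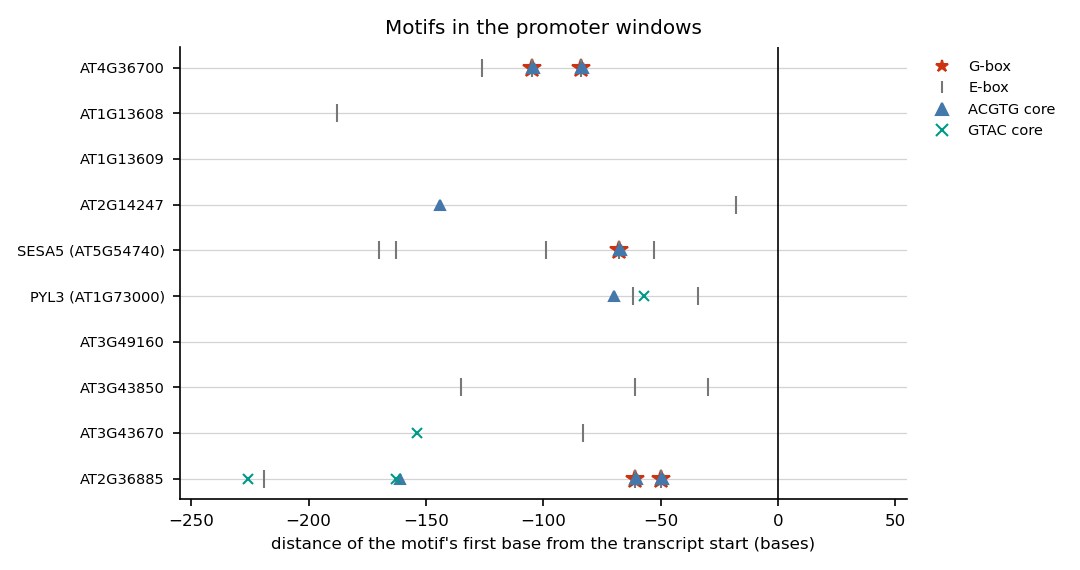
Positions of the searched motifs in the promoter windows of the 10 genes, with the distance of the motif's first base from the transcript start in bases on the x axis and a gene on each line. G-boxes lie between 105 and 50 bases before the start in AT4G36700, SESA5 and AT2G36885, and each also counts as an E-box and holds the ACGTG core.

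On deficient iron the 6 higher genes reached very different levels. Per length, as fragments per kilobase scaled to the library total (FPKM; mean ± SD, n = 3), AT1G13609 was the most abundant in wild type at 940 ± 211, followed by AT2G14247 at 467 ± 43.5 and AT4G36700 at 242 ± 23.2. AT1G13608 was at 42.0 ± 14.97 FPKM, SESA5 at 21.0 ± 2.29 and PYL3 at 7.68 ± 0.841. In clf on deficient iron the first 4 places were the same, at 722 ± 100, 360 ± 50.9, 75.6 ± 41.4 and 36.2 ± 16.4 FPKM, while SESA5 at 2.38 ± 2.52 and PYL3 at 2.03 ± 0.856 lay below AT3G43670 at 2.77 ± 0.923. This order depends on the gene lengths behind the deposited FPKM, which are not stated. For AT2G14247 and AT1G13608 the FPKM imply shorter lengths than the RefSeq transcripts of 1094 and 636 bases. In CPM, which use no length, AT4G36700 was higher in deficient wild type (425 ± 42.2) than AT1G13609 (337 ± 66.0) and AT2G14247 (217 ± 17.4). On sufficient iron, AT1G13608, SESA5 and PYL3 had no read in any of the 6 libraries of either genotype. A count of 0 over such a group allows up to 0.0636 CPM in wild type and 0.0546 CPM in clf (3 counts over the group). Without molecular identifiers, these limits and the count intervals below cover counting error only.

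**Figure D2:**
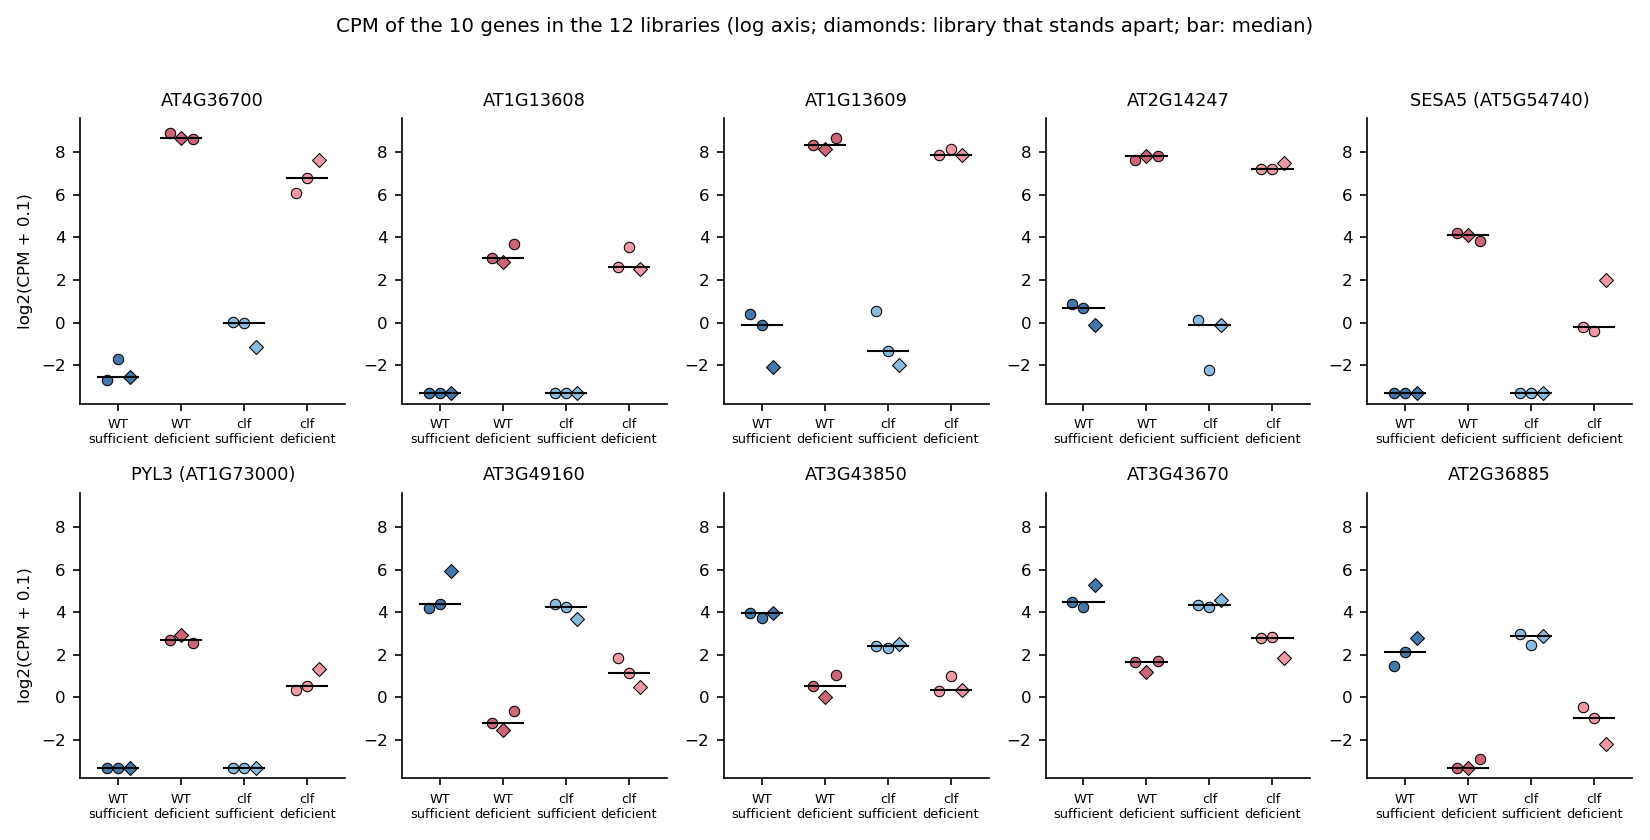
CPM of each of the 10 genes in each of the 12 libraries, on a log axis as log2(CPM + 0.1), with 4 groups on the x axis, a bar at each group's median and diamonds for the 4 libraries that stand apart. The first 6 genes lie higher on deficient iron in every library of both genotypes and the last 4 lie lower.

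In wild type, all 3 deficient libraries lay above all 3 sufficient ones for 6 of the 10 genes and below them for the other 4. The same split of 6 and 4 held in clf. Over all 19148 genes that passed the filter on low counts, groups failed to overlap in this way for 14.7% (higher) and 13.6% (lower) in wild type and for 10.3% and 10.6% in clf. With the quasi-likelihood test of edgeR and Benjamini-Hochberg adjustment over all of them, 4.61% of them were called higher and 4.52% lower on deficient iron in wild type, and 0.752% and 0.768% in clf. Because these contrasts chose the members, the counts support nothing about them. Where the genotypes are said below to lie apart, this is a description as well. The share of all genes with genotypes apart was not computed, so no genotype effect is read from it. Summed leaf marker CPM moved with iron too, at 88781 to 102284 and 56900 to 61938 in sufficient and deficient wild type and at 71354 to 81706 and 48431 to 59683 in clf, and their part was not tested. All 10 passed the filter, the 6 higher ones through the deficient groups, where they are high.

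AT4G36700 lies on chromosome 4 (17298200 to 17300367, minus strand, 4 exons). It gave 0.0553, 0.203 and 0.0699 CPM in the sufficient wild-type libraries, which are 1, 3 and 1 reads, and 473, 406 and 395 CPM in the deficient ones. In clf the values were 0.929, 0.874 and 0.360 CPM with sufficient iron and 67.8, 112 and 199 CPM with deficient iron. All 4 groups were apart from each other. Wild type was highest on deficient iron and lowest on sufficient iron, with both clf groups between. The difference between iron levels was 11.89 on the log2 scale in wild type (SE 0.63) and 7.45 in clf (SE 0.50). It was 12.63 in wild type without replicate 2 of sufficient wild type, and 6.63 in clf without the 4 libraries that stand apart. The nearest other cupin by sequence, AT2G18540, is 66.5% identical over 74.4% of the transcript.

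The defensin-like genes AT1G13608 (4661682 to 4662428) and AT1G13609 (4662698 to 4663253) stand in a row on the plus strand of chromosome 1, with 269 bases between them and 2 exons each. AT1G13609 gave 1.22, 0.812 and 0.140 CPM in the sufficient wild-type libraries and 319, 281 and 410 CPM in the deficient ones. The clf libraries gave 1.37, 0.291 and 0.154 CPM with sufficient iron and 232, 281 and 235 CPM with deficient iron. The sufficient groups of the 2 genotypes overlapped, and on deficient iron every wild-type library lay above every clf library by a narrow margin. Its log2 difference between iron levels was 8.81 (SE 0.72) in wild type and 8.68 (SE 0.72) in clf. Single libraries moved both values, to 9.44 in wild type without replicate 1 of sufficient wild type and to 10.14 in clf without replicate 1 of sufficient clf.

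AT1G13608 had no reads on sufficient iron. On deficient iron it was at 8.21, 7.10 and 12.9 CPM in wild type and at 6.07, 11.6 and 5.67 CPM in clf, and these groups overlapped. It lay at least 151-fold higher with deficient iron in wild type and at least 146-fold higher in clf, with 3 counts over the group in place of 0. Fewer libraries behind a group at 0 lower such a bound, here to 92.8 without replicate 1 of sufficient wild type and to 94.0 without replicate 3 of sufficient clf. In each of the 6 deficient libraries its reads came to between 2.42% and 4.14% of those of AT1G13609, and to 2.97% over all of them (1462 against 49204 counts). The 69 reads of AT1G13609 in the sufficient libraries would give 2.05 reads of AT1G13608 at that percentage, and 0 were counted, so the depth does not show whether the pair kept its ratio on sufficient iron. The transcripts are 69.0% identical over 210 aligned bases.

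The next defensin-like gene, AT1G13607, lies 350 bases before AT1G13608 on the same strand, and was also at 0 in all sufficient libraries. On deficient iron it was at 1.47, 1.601 and 3.34 CPM in wild type and at 0.944, 2.51 and 2.104 CPM in clf. Its level was at least 34.4-fold higher in wild type and at least 35.8-fold higher in clf, or 21.2 without replicate 1 of sufficient wild type and 23.1 without replicate 3 of sufficient clf. Like AT1G13608 it passed the filter through the deficient groups alone, so it is given no test. On the other side, AT1G13610, an alpha/beta-hydrolase gene on the minus strand 577 bases past AT1G13609, was at 0.0226 ± 0.0391 CPM in sufficient and 0.977 ± 0.209 CPM in deficient wild type (mean ± SD, n = 3). That is 79 counts against 1, a ratio of 46.3 with an exact 95% interval for counts of 8.07 to 1850, and at least 10.6 without replicate 2 of sufficient wild type, which holds the 1 read. In clf AT1G13610 was at 0.0753 ± 0.0653 and 0.252 ± 0.107 CPM and the difference between genotypes in this response was not tested. Of the 13 plant defensin genes of the list, 9 passed the filter, AT1G13607 among them. Of the others that passed, only PDF1.4 was called in the iron contrasts, and it fell in wild type (log2 -1.65, SE 0.37, edgeR adjusted p 0.022). Its call was lost without each of 4 libraries, with an adjusted p of up to 0.089 without replicate 1 of deficient wild type.

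**Figure D3:**
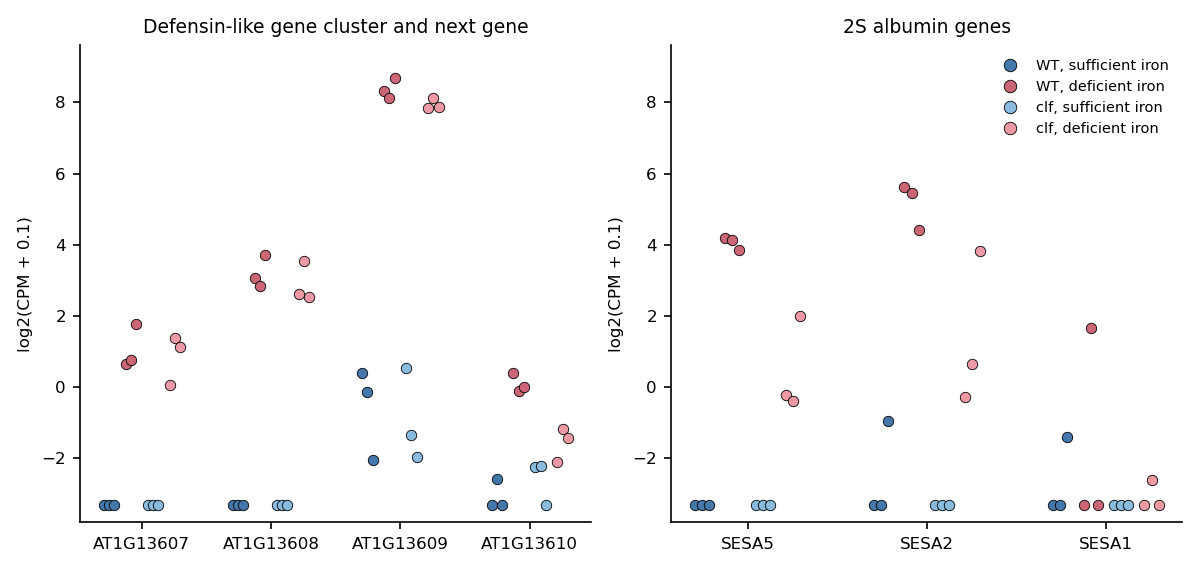
CPM per library as log2(CPM + 0.1) on the y axis, for the defensin-like genes AT1G13607, AT1G13608 and AT1G13609 and the next gene AT1G13610 (left) and for the 2S albumin genes SESA5, SESA2 and SESA1 (right), with each group in its own colour. The 3 defensin-like genes lie higher on deficient iron in every library of both genotypes, and SESA5 and SESA2 lie higher in wild type than in clf on deficient iron.

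AT2G14247 (chromosome 2, 6034282 to 6035375, plus strand, 1 exon) gave 1.71, 1.49 and 0.839 CPM in the sufficient wild-type libraries and 197, 224 and 229 CPM in the deficient ones. In clf it gave 0.984, 0.116 and 0.823 CPM with sufficient iron and 148, 150 and 182 CPM with deficient iron. The sufficient groups overlapped, and on deficient iron wild type lay above clf in every library. Its log2 difference between iron levels was 7.31 (SE 0.47) in wild type and 7.94 (SE 0.50) in clf. In the RefSeq models the antisense gene AT2G06085 overlaps 233 bases of it. Neither the gene model counted nor the use of strand is stated, so whether antisense reads entered these counts is not known. Its neighbour AT2G14245 is an uncharacterized gene 1779 bases away on the minus strand. It was at 0.0884 ± 0.109 CPM in sufficient and 4.38 ± 0.399 CPM in deficient wild type (log2 5.59, SE 0.99). In clf it was at 0.116 ± 0.202 and 1.89 ± 1.015 CPM (log2 4.03, SE 0.93). AT2G14245 passed the filter through the deficient groups alone, so it is given no test.

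SESA5 (chromosome 5, 22238358 to 22239187, minus strand, 1 exon) had no reads on sufficient iron. On deficient iron it was at 18.3, 17.4 and 14.2 CPM in wild type and at 0.764, 0.660 and 3.93 CPM in clf. The clf library that stands apart held the highest of the 3 clf values, and even it lay below every wild-type library. In wild type SESA5 lay at least 260-fold higher with deficient iron, and in clf at least 35.2-fold higher. The bound in clf was 12.9 without replicate 3 of deficient clf, and that in wild type was 160.4 without replicate 1 of sufficient wild type. It shares 75.8% identity with SESA2 over 186 aligned bases, 22.4% of its transcript, and whether any reads were split between the genes was not tested.

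Of the other 4 2S albumin genes, SESA3 and SESA4 had no reads anywhere and SESA1 did not pass the filter. SESA2 passed it through the deficient groups alone, so it is given no test. It gave 0, 0 and 0.420 CPM in the sufficient wild-type libraries and 48.8, 43.8 and 21.1 CPM in the deficient ones (log2 8.14, SE 1.52). That log2 difference was 7.48 without replicate 1 of sufficient wild type. All reads of SESA2 on sufficient iron came from replicate 3 of wild type. In clf SESA2 was at 0 in all sufficient libraries and at 0.720, 1.48 and 14.0 CPM in the deficient ones, a ratio of at least 110, or of at least 21.3 without replicate 3 of deficient clf. SESA1 was above 0.280 CPM in a single library, replicate 2 of deficient wild type, at 3.04 CPM. The summed CPM of 13 other genes of seed maturation (globulins, oleosins, EM proteins and their regulators) lay between 0.861 and 4.42 over all 12 libraries. Of these 13, only OLEO4 and PAP85 passed the filter, and PAP85, a vicilin-like storage protein gene, fell on deficient iron in wild type (log2 -2.88, SE 0.58, edgeR adjusted p 0.012), opposite to the direction of SESA5 and SESA2.

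PYL3 (chromosome 1, 27462983 to 27463968, plus strand, 1 exon) also had no reads on sufficient iron. On deficient iron it was at 6.26, 7.43 and 5.72 CPM in wild type and at 1.17, 1.35 and 2.38 CPM in clf, with no overlap. It lay at least 101-fold higher with deficient iron in wild type and at least 31.0-fold higher in clf. These bounds were 62.2 without replicate 1 of sufficient wild type and 15.1 without the 4 libraries that stand apart. Of 13 other receptor genes of the family, 9 were tested: PYL1 rose (log2 0.70, SE 0.18, edgeR adjusted p 0.041) and PYL6 fell (log2 -0.91, SE 0.22, edgeR adjusted p 0.029) in wild type, and none was called in clf. The list's median log2 difference was -0.03 in wild type and 0.06 in clf, against 0.01 and -0.02 over all genes tested. The PYL1 call was lost without each of 9 libraries (up to 0.126 without replicate 3 of deficient wild type) and the PYL6 call without each of 5 (up to 0.089 without replicate 1 of that group). Of the 7 tested PP2C phosphatase genes that act below the receptors, HAB2 rose in wild type (log2 0.54, SE 0.15, edgeR adjusted p 0.046), a call lost without each of 9 libraries (up to 0.156 without replicate 1 of deficient wild type), and of 10 kinase and response genes of abscisic acid signalling none was called in either genotype. BGAL17, a beta-galactosidase gene 495 bases from PYL3 on the other strand, rose in wild type (log2 0.98, SE 0.18, edgeR adjusted p 0.0072) and was not called in clf (log2 0.14, SE 0.17, edgeR adjusted p 0.79).

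Among the 4 genes that were lower on deficient iron, AT3G49160 (chromosome 3, 18221794 to 18224905, minus strand, 4 exons) gave 18.2, 20.4 and 59.9 CPM in the sufficient wild-type libraries and 0.331, 0.246 and 0.551 CPM in the deficient ones. In clf the values were 20.9, 19.0 and 12.8 CPM with sufficient iron and 3.55, 2.105 and 1.28 CPM with deficient iron. The value of 59.9 CPM belongs to the library that stands apart, and the sufficient groups overlapped. On deficient iron every clf library lay above every wild-type library. The log2 difference between iron levels was -6.41 (SE 0.63) in wild type, -5.42 without the 4 libraries that stand apart, -5.64 without replicate 3 of sufficient wild type alone, and -2.94 (SE 0.52) in clf. Of 13 other pyruvate kinase genes, which encode the enzyme that makes pyruvate at the end of glycolysis, 8 were tested: AT5G56350 (log2 0.93, SE 0.19, edgeR adjusted p 0.013) and AT2G36580 (log2 0.49, SE 0.09, edgeR adjusted p 0.010) rose in wild type and PKP-BETA1, for a plastid subunit, fell (log2 -0.54, SE 0.13, edgeR adjusted p 0.030). None was called in clf, and the list's median was 0.12 in wild type against 0.01 over all genes tested. The call of AT5G56350 was lost without replicate 1 of sufficient wild type (0.052), and that of PKP-BETA1 without each of 5 libraries (up to 0.098 without the same library). The gene AT3G49155 overlaps 291 bases of AT3G49160 on the other strand.

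AT3G43850 (chromosome 3, 15702085 to 15704391, minus strand, 2 exons) gave 15.6, 13.2 and 15.7 CPM in the sufficient wild-type libraries and 1.33, 0.903 and 2.00 CPM in the deficient ones. The clf libraries gave 5.19, 4.89 and 5.66 CPM with sufficient iron and 1.12, 1.88 and 1.16 CPM with deficient iron. Here the genotypes were apart on sufficient iron, with wild type higher in every library, and overlapped on deficient iron. None of the other 9 genes showed this combination, though AT1G13608 also overlapped on deficient iron. Its log2 difference between iron levels was -3.38 (SE 0.29) in wild type and -1.91 (SE 0.28) in clf.

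AT3G43670 (chromosome 3, 15567067 to 15569984, plus strand, 7 exons) gave 22.0, 19.0 and 38.0 CPM in the sufficient wild-type libraries and 3.06, 2.18 and 3.20 CPM in the deficient ones. In clf it gave 20.2, 18.6 and 23.9 CPM with sufficient iron and 6.88, 6.97 and 3.51 CPM with deficient iron. The sufficient groups overlapped and on deficient iron every clf library lay above every wild-type library. The log2 difference was -3.22 (SE 0.33) in wild type and -1.85 (SE 0.32) in clf. Copper amine oxidases break down polyamines and give off hydrogen peroxide. Of 9 other genes of the family 6 were tested, and AT1G31690 rose in wild type (log2 1.09, SE 0.29, edgeR adjusted p 0.041), a call lost without each of 9 libraries (up to 0.145 without replicate 1 of deficient wild type), while none was called in clf. CuAO1 (AT1G62810) is 79.4% identical to AT3G43670 over 82.8% of the transcript, and whether it took any of its reads was not tested. CuAO1 was at 15.2 ± 1.33 and 14.5 ± 3.55 CPM in sufficient and deficient wild type and at 26.9 ± 1.90 and 25.5 ± 1.57 CPM in clf (mean ± SD, n = 3), and was called on iron in neither. The gene beside AT3G43670, AT3G43660 of the vacuolar iron transporter family, had no reads in any library.

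AT2G36885 (chromosome 2, 15482003 to 15483788, minus strand, 6 exons) gave 2.71, 4.26 and 6.85 CPM in the sufficient wild-type libraries, and a single read was counted over the 3 libraries on deficient iron (0, 0 and 0.0344 CPM). In clf the values were 7.87, 5.42 and 7.15 CPM with sufficient iron and 0.630, 0.408 and 0.122 CPM with deficient iron. The sufficient groups overlapped, and on deficient iron clf lay above wild type in every library. With 210 counts against 1, the ratio in wild type was 359, with an exact 95% interval for counts of 63.7 to 14230. It was 191 without the 4 libraries that stand apart, and at least 76.4 without replicate 3 of deficient wild type, which holds the 1 read. In clf the log2 difference was -4.17 (SE 0.55). Its neighbours MAT3, a methionine adenosyltransferase gene 590 bases away, and AT2G36895, 4746 bases away, moved in opposite directions in wild type: MAT3 rose (log2 1.25, SE 0.24, edgeR adjusted p 0.010) and AT2G36895 fell (log2 -0.77, SE 0.13, edgeR adjusted p 0.0056).

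Over the 2 nearest genes on each side of each member, 36 in all, 20 passed the filter on low counts. The iron test called 6 higher and 2 lower in wild type and 1 higher in clf, AT1G13607. Over all genes it called 4.61% higher and 4.52% lower in wild type, and 0.752% and 0.768% in clf. Of the 6, AT1G13607, AT1G13610 and AT2G14245 passed the filter through deficient groups alone, so nothing is read from these counts. None of the 20 was called in a comparison of the genotypes.

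**Figure D4:**
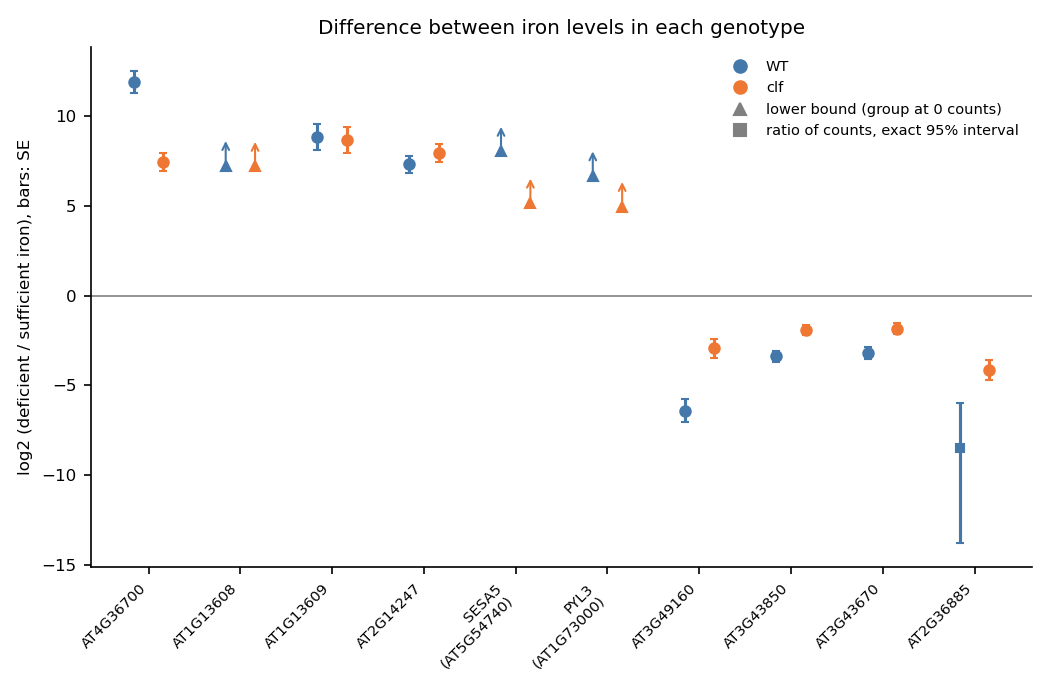
Log2 of the ratio of deficient to sufficient iron for each gene in wild type and clf, with bars for the SE, triangles with arrows for lower bounds where the sufficient group had no reads, and a square with its exact 95% interval for AT2G36885 in wild type. AT4G36700 and the 4 lower genes lie closer to 0 in clf than in wild type, while AT1G13609 and AT2G14247 lie at like values in both.

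Whether loss of CLF shifts the genes was tested on the mean of both iron levels, which gives each level the same weight. In the same edgeR test over 19148 genes, 1 of 7 members was higher in clf and 1 was lower, where 7.76% of all genes were called higher and 4.94% lower. The 3 members with no reads on sufficient iron have no such test. AT3G43850 was lower in clf (log2 -0.76, SE 0.20, edgeR adjusted p 0.028). Its mean is made of -1.496 (SE 0.27) on sufficient iron and -0.02 (SE 0.28) on deficient iron. It thus rests on sufficient iron, whose wild-type libraries also entered the contrast that chose the gene, and is no call for both levels. That call was lost without each of 6 libraries, with adjusted p-values of 0.053 to 0.073: replicates 1 and 3 of deficient clf, 1 and 2 of sufficient clf, 3 of deficient wild type and 1 of sufficient wild type. AT2G36885 was the gene called higher (log2 2.49, SE 0.53, edgeR adjusted p 0.012). Its mean is made of 4.40 (SE 0.94) on deficient iron and 0.57 (SE 0.47) on sufficient iron, so it rests mostly on the single read of deficient wild type, which also entered the contrast that chose the gene. Its call is therefore not independent of the choice.

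The other 5 did not pass: AT4G36700 (log2 0.47, SE 0.41), AT1G13609 (-0.37, SE 0.44), AT2G14247 (-0.75, SE 0.29), AT3G49160 (0.83, SE 0.38) and AT3G43670 (0.35, SE 0.22), with edgeR adjusted p-values of 0.13 to 0.64. The small mean of AT4G36700 joins opposite signs, 2.69 on sufficient iron and -1.75 on deficient iron. Without the 4 libraries that stand apart, 3 of these 5 were called as well: AT2G14247 was lower in clf (log2 -1.01, edgeR adjusted p 0.021), and AT3G49160 (log2 1.34, edgeR adjusted p 0.00081) and AT3G43670 (log2 0.53, edgeR adjusted p 0.0043) were higher. In the reported fit AT3G49160 was at 2.57 on deficient and -0.90 on sufficient iron, and AT3G43670 at 1.03 and -0.33. Their positive means thus rest on deficient iron, whose wild-type libraries also entered the contrast that chose the genes. No shift at both levels is read from these 2 calls. AT2G14247 was at -1.06 on sufficient iron, with 36 counts in clf against 65 in wild type, and at -0.44 on deficient iron. Its mean difference was -0.51 without replicate 2 of sufficient clf, which held 2 reads of the gene. These libraries also entered the contrasts that chose AT2G14247, so nothing is read from its call either. For AT3G49160 the library that decides is replicate 3 of sufficient wild type, without which the log2 difference was 1.21 (edgeR adjusted p 0.020). Over all genes 4290 rather than 2432 were called without the 4 libraries that stand apart.

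On sufficient iron alone, the libraries of both genotypes also enter the iron contrasts that chose the members, so the values are a description. Over all genes 3.59% were called higher and 1.32% lower in clf, and of the 7 members with reads 0 and 1 were past the same threshold, from which nothing is read. AT3G43850 was lower in clf (log2 -1.496, SE 0.27), in every library, and no member was past the threshold without replicate 2 of sufficient clf. AT4G36700 was at 39 counts in clf against 5 in wild type (log2 2.69, SE 0.72), with no overlap of the libraries. AT2G36885 (0.57, SE 0.47), AT1G13609 (-0.30, SE 0.72), AT2G14247 (-1.06, SE 0.47), AT3G49160 (-0.90, SE 0.48) and AT3G43670 (-0.33, SE 0.30) had overlapping groups. The log2 difference of AT3G49160 was 0.05 without the 4 libraries that stand apart, and that of AT1G13609 was -1.74 without replicate 1 of sufficient clf and 0.33 without replicate 1 of sufficient wild type.

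On deficient iron, the 6 genes that were higher there lay lower in clf than in wild type, and 3 of the 4 that were lower there lay higher in clf. Choosing genes for a large iron difference in wild type favours this pattern of signs, so it is a description and supports nothing. Over all genes 4.01% were called higher and 2.46% lower in clf, and 2 and 3 of the 10 members were past the same threshold, from which nothing is read. The 3 lower ones were AT4G36700 (log2 -1.75, SE 0.37), SESA5 (-3.20, SE 0.70) and PYL3 (-1.98, SE 0.34). The 2 higher ones were AT3G49160 (log2 2.57, SE 0.59) and AT2G36885, with 31 counts in clf against 1 in wild type, a ratio of 28.7 with an exact 95% interval for counts of 4.79 to 1172, and at least 6.13 without replicate 3 of deficient wild type. AT1G13608, AT1G13609 and AT2G14247 had log2 differences of -0.27 (SE 0.37), -0.43 (SE 0.49) and -0.44 (SE 0.35), AT3G43850 had -0.02 (SE 0.28) and AT3G43670 had 1.03 (SE 0.32). The median over all genes tested was -0.01. Summed root marker CPM lay between 288 and 363 in clf and between 399 and 496 in wild type on deficient iron, with COBL9 (AT5G49270), a root hair gene, the 1 called of 9 (lower in clf, log2 -2.88, SE 0.74, edgeR adjusted p 0.043, lost without each of 11 libraries, up to 0.142 without replicate 3 of deficient wild type). The median log2 difference of the 9 tested root markers was -1.20 on deficient iron, -0.86 on the mean of both levels and 0.22 on sufficient iron. The part of root tissue in these results was not tested.

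The number of members past the threshold rests on few libraries. It was 0 rather than 5 without replicate 1 of deficient clf, replicate 2 of deficient clf or replicate 1 of deficient wild type, and 1 without replicate 2 or without replicate 3 of deficient wild type. With only the deficient groups in the fit 2 were left, PYL3 and AT3G49160, while AT4G36700 and SESA5 no longer passed and AT2G36885 did not pass the filter on low counts. The log2 difference of SESA5 was -4.54 without replicate 3 of deficient clf, the library that stands apart, where SESA5 was at 3.93 CPM against 0.764 and 0.660 CPM. Without the 4 libraries that stand apart the log2 differences were -2.27 for AT4G36700, -4.51 for SESA5, -2.24 for PYL3, 2.63 for AT3G49160, 4.46 for AT2G36885 and 1.14 for AT3G43670.

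**Figure D5:**
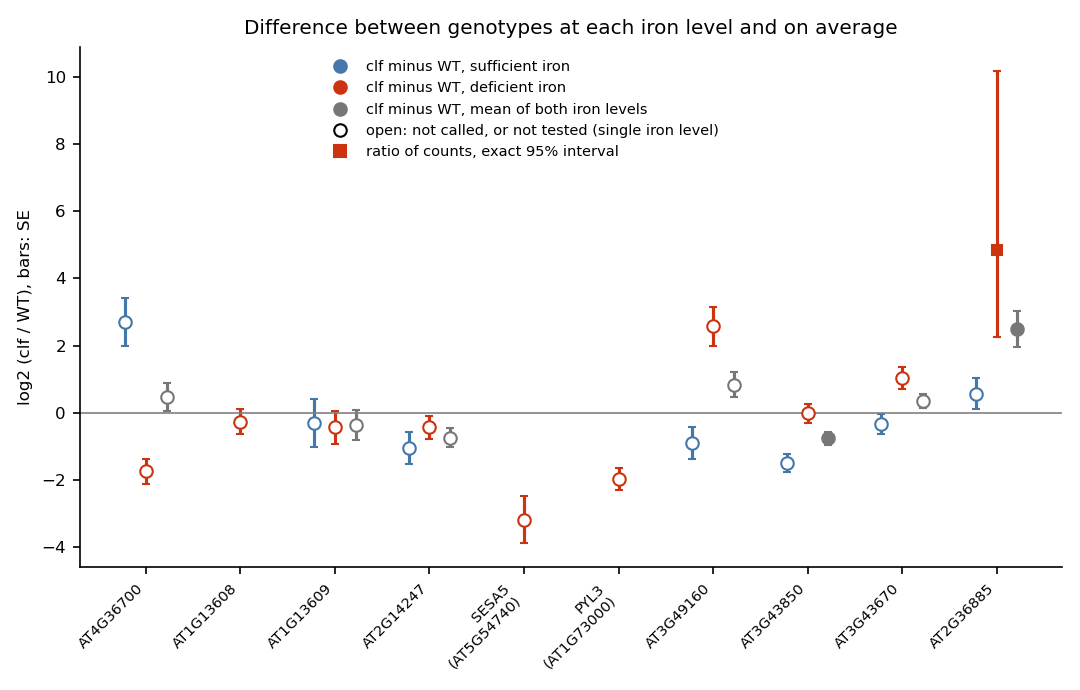
Log2 of the ratio of clf to wild type for each gene on sufficient iron, on deficient iron and on the mean of both, with bars for the SE, filled points where the mean of both levels had an edgeR adjusted p under 0.05, and a square with the exact 95% interval of the count ratio for AT2G36885 on deficient iron. AT1G13608, SESA5 and PYL3 have a point on deficient iron only, since they had no reads on sufficient iron.

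Some genes related to the members were called between the genotypes too. On the mean of both iron levels 7.76% of all genes were called higher in clf and 4.94% lower. Of the 9 tested receptor genes related to PYL3, PYR1 (log2 0.48, SE 0.08, edgeR adjusted p 0.0028) and PYL6 (log2 1.83, SE 0.16, edgeR adjusted p 5.5e-05) were higher in clf on the mean of both iron levels. PP2CA, a phosphatase gene they act on, was higher too (log2 1.07, SE 0.16, edgeR adjusted p 0.0016), the 1 called of 7. PYL3 had the opposite sign on deficient iron. ABI5, a bZIP factor gene of abscisic acid signalling, was higher in clf (log2 1.95, SE 0.47, edgeR adjusted p 0.020; 0.053 without replicate 2 of sufficient wild type), and COR15A, a cold- and abscisic acid-responsive gene, was lower (log2 -1.10, SE 0.22, edgeR adjusted p 0.0096). Of the 6 tested copper amine oxidase genes 3 were higher in clf, among them CuAO1 (log2 0.81, SE 0.12, edgeR adjusted p 0.0012) and AT4G12290 (log2 1.75, SE 0.22, edgeR adjusted p 0.00053). The call of the third, AT2G42490 (log2 0.36), was lost without each of 3 libraries (edgeR adjusted p up to 0.058 without replicate 2 of sufficient clf). PAP85 was higher as well (log2 2.01, SE 0.37, edgeR adjusted p 0.0057), and the cupin gene AT1G07750 by a smaller amount (log2 0.46, SE 0.08, edgeR adjusted p 0.0045). No plant defensin gene and no pyruvate kinase gene was called on the mean of both levels, of 9 and 8 tested. On deficient iron alone PDF1.4 was higher in clf (log2 1.404, SE 0.37, edgeR adjusted p 0.048), a call lost without each of 8 libraries (up to 0.165 without replicate 1 of deficient wild type), and so was PAP85 (log2 3.18, SE 0.57, edgeR adjusted p 0.0085), a call kept without each library in turn.

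The genes whose profile over the 12 libraries was most like that of each member were found by Pearson's r of log2 CPM, given as a description, since all of these profiles are split by the iron level that chose the members. AT4G36700 was nearest to BHLH100 (r 0.991), OPT3 (0.989), an iron transporter gene of the phloem, and BETA-OHASE 1 (0.988), of carotenoid synthesis. AT1G13609 was nearest to NRAMP4 (0.991), for a vacuolar metal exporter, BHLH101 (0.989) and BHLH100 (0.988). AT1G13608 was nearest to ZIF1 (0.995), a vacuolar transporter gene, and then to NRAMP4 (0.994) and AT1G13607 (0.992), and AT2G14247 to bHLH39 (0.993), AT1G47395 (0.992) and AT5G05250 (0.992).

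SESA5 and PYL3 had other nearest genes than those 4, and both lists held STE1, a sterol desaturase gene: SESA5 was nearest to STE1 (r 0.989), AT5G01670 (0.985) and SESA2 (0.977), and PYL3 to AT4G08867 (0.995), STE1 (0.994) and AT1G55360 (0.990). FER4, a ferritin gene, was among the nearest 3 of AT3G49160 (0.985), AT3G43670 (0.991) and AT2G36885 (0.982). The other nearest genes were FER1 (0.985) and FED A (0.983), a ferredoxin gene, for AT3G49160, FED A (0.988) and UPM1 (0.986), of siroheme synthesis, for AT3G43670, and NEET (0.984), for an iron-sulfur protein, and AT3G61870 (0.983) for AT2G36885. AT3G43850 was nearest to ATS1 (0.969), a glycerol-phosphate acyltransferase gene, PIP1C (0.960), an aquaporin gene, and AT4G10080 (0.957), and to no ferritin. Among the members themselves, r was 0.983 within each of these pairs: the neighbours AT1G13608 and AT1G13609, SESA5 with PYL3, and AT3G49160 with AT3G43670, and it was also 0.983 for AT1G13609 with AT2G14247.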

How the data were processed

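RNA was sequenced from TruSeq stranded mRNA libraries and aligned with TopHat2 to TAIR10, per the labels' protocols and the submitters' processing notes, which state no versions, counting tool, annotation or strand setting. The authors deposited raw counts for each gene and FPKM values made from them. In a check on genes above 50 counts in each library, the deposited counts divided by FPKM scaled with library totals for 12911 of 12911, to a relative 1e-09. Totals of 16092041 to 29400813 set the precision.

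Groups came from the titles and labels. The members, gene lists, tests and rules were chosen with earlier results of these data known, and the named genes are the members, the 3 genes most like each, their 2 nearest genes on each side, and up to 4 called members of each list and contrast. Genes were filtered with filterByExpr (minimum count 10, minimum total 15), which kept 19148 of 32678, scaled with TMM and fitted in edgeR 4.0.16 (R 4.3.3) by glmQLFit, with 4 groups of 3 libraries (residual degrees of freedom 8). glmQLFTest p-values were Benjamini-Hochberg adjusted, with calls below 0.05. CPM use TMM-scaled totals, and SE is that of the log2 fold change. Groups at 0 counts gave lower bounds with 3 counts over the group, and groups with 1 to 3 counts ratios with an exact 95% interval. Likeness used log2 CPM with a prior count of 2. Gene positions, names and promoter windows are RefSeq's for TAIR10.1, in which 31912 of 32678 identifiers were found. Sequence identities are from BLAST 2.17.0 (blastn, E-value limit 1e-05). The fits were also run on simulated counts, with changes placed in well-counted genes only, so the simulation does not cover groups near 0 counts. Alternatives were RLE factors, no filter, a replicate block, only the compared groups, no libraries that stand apart, each library left out in turn, DESeq2 1.42.0, and limma 3.58.1 on log2(FPKM + 0.1) and log2(FPKM + 1). The bounds and ratios of groups with few counts were also computed with libraries left out, an alternative chosen after seeing the data.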

Additional observations from a re-analysis of the deposited data

How the results depend on the processing

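Counts below are of genes called, over all genes and then among the members. Without the 4 libraries that stand apart, the mean clf contrast gave 4290 and 5 (2432 and 2 in the reported fit), clf against wild type gave 1958 and 2 on sufficient iron (940 and 1) and 3220 on deficient iron (1239), and the iron contrasts gave 3230 in wild type (1747) and 1660 in clf (291). With only the compared groups, clf against wild type gave 550 on sufficient iron and 619 and 2 on deficient iron, and the iron contrasts 670 and 113. DESeq2 gave 1644 and 3 on sufficient iron, 1978 on deficient iron, and 921 for iron in clf. limma on log2(FPKM + 0.1) and log2(FPKM + 1) gave 3009 and 3007 genes for iron in wild type, of which 84.9% were higher in both against 50.5% in the reported fit, with all-gene medians of 0.24 and 0.19. For iron in clf they gave 503 and 586, of which 80.5% and 78.8% were higher against 49.5%, with medians of 0.15 and 0.12. On sufficient iron 60.5% of calls were higher in clf without the libraries that stand apart and 62.9% with DESeq2, against 73.1%. On iron in wild type 40.7% were higher with only the compared groups. Members called with limma were 1 on the mean and 2 on sufficient iron with a pseudocount of 0.1, and 3 on deficient iron with 1. Leaving out each library in turn gave 1659 to 2736 and 1 to 3 on the mean, 386 to 1016 and 0 to 2 on sufficient iron, 504 to 1556 and 0 to 6 on deficient iron, and 848 to 1928 and 90 to 453 for iron in wild type and clf.

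Signs turned for values that were not called. On the mean, AT4G36700 was -0.11 and -0.71 (log2) with limma at 0.1 and 1. On sufficient iron AT3G49160 was 0.0486 without the libraries that stand apart, and with a library left out AT1G13609 ranged from -1.74 to 0.33 and AT3G43670 from -0.52 to 0.0258. On deficient iron AT3G43850 was 0.0098 with the replicate block and 0.0640 and 0.0356 with limma, and with a library left out it ranged from -0.31 to 0.32 and AT1G13608 from -0.68 to 0.0264. The causes were not tested.

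Replicate numbers did not pair the libraries: over 18 same-numbered pairs the correlation of deviations ran from -0.628 to 0.641, 12 were over 0.1, and 4 of 12 libraries correlated best with their own number. With the number as a block, 2507 and 2 were called on the mean, 965 and 1 on sufficient iron, 1189 and 4 on deficient iron (SESA5 adjusted p 0.058), and 1830 and 241 for iron in wild type and clf. Depth limits AT1G13608, SESA5 and PYL3 on sufficient iron and AT2G36885 in deficient wild type, and 3 libraries a group limit the rest.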
